A study of Mus musculus with 6 samples.

Results

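The genes of MHC class I antigen presentation were examined in cultured mouse hepatic stellate cells from S100a16+/- and wild-type (WT) mice. The set holds 10 of the 55401 genes in the deposited table: the heavy chains H2-D1, H2-K1 and H2-T23, the light chain B2m, the peptide transporter genes Tap1, Tap2 and Tapbp, the immunoproteasome subunits Psmb8 and Psmb9, and the transactivator Nlrc5. These genes were chosen from earlier results of the same S100a16+/- against WT contrast, so their differences between the groups are given as a description with no p-value, and the number of them past the threshold of the fit across all genes supports nothing. The study, titled as a work on S100a16 deficiency, liver fibrosis and Cxcr4, sequenced polyadenylated RNA from 6 libraries, 3 per genotype. S100a16 encodes a small calcium-binding protein. All mice were of the C57BL/6J strain, and the S100a16+/- mice were heterozygous, with no further allele, promoter or Cre named in the labels. All cells spent 7 days in medium with fetal bovine serum, a culture in which stellate cells turn into myofibroblast-like cells. Whether the 3 libraries of a genotype came from separate animals is not in the labels. The spread among the WT libraries, and between S100a16+/- replicates 1 and 2, may therefore be technical. By sex-linked genes given below, S100a16+/- replicate 3 read as female and replicates 1 and 2 as male, so they did not share 1 animal.

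MHC class I molecules display short peptides from inside the cell to CD8 T cells and natural killer cells. Peptides are cut by the proteasome, whose immunoproteasome form exchanges its catalytic subunits, are pumped into the endoplasmic reticulum by the transporter TAP, and are loaded there onto a heavy chain paired with beta-2-microglobulin. Nearly all nucleated cells express the pathway at a basal level. Interferons raise it through promoter sites that bind IRF and STAT factors and through the X2 and Y boxes. To these boxes NLRC5 is recruited with RFX, CREB and NF-Y proteins, and a further promoter site binds NF-kB.

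Promoter sequence was available from RefSeq (build GRCm38.p6) for 8 of the 10 genes, all but Tap2 and Nlrc5. The 5 stretches below each hold matches to some of the searched motifs, and not all hold the same ones. Each is read 5′ to 3′ on the gene's strand and ends 1 base before the annotated start. The first 4 hold 180 bases each, and the Tap1 stretch holds the 225 bases between the Tap1 start and the start of Psmb9, which is transcribed the other way. Capitals mark matches to a searched motif on either strand.
H2-D1: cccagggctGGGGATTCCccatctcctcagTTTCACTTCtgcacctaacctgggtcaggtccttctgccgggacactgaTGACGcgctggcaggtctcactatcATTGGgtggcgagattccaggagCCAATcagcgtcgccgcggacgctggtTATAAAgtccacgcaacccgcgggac
H2-K1: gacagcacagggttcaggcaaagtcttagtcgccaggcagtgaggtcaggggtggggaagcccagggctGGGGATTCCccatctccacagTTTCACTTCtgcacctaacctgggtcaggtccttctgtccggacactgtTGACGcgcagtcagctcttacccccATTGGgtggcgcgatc
H2-T23: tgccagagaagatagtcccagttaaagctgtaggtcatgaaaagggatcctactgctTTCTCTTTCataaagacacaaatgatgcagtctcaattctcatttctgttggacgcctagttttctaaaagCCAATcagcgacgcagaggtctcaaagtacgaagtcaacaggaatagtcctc
B2m: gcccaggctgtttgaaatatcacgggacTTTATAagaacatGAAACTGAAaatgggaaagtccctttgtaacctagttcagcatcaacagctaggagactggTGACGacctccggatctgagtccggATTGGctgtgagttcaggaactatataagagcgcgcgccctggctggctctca
Tap1: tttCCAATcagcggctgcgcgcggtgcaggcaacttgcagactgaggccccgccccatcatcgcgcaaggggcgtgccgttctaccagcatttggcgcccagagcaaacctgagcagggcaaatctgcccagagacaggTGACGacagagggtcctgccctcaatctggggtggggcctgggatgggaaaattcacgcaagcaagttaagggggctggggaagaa
The H2-D1 stretch lies at chr17:35262914-35263093 on the plus strand, the H2-K1 stretch at chr17:34000348-34000527 on the minus strand, and the H2-T23 stretch at chr17:36032702-36032881 on the minus strand. The B2m stretch lies at chr2:122147507-122147686 and the Tap1 stretch at chr17:34187331-34187555, both on the plus strand.

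Each motif was searched on both strands in the window from 250 bases before to 50 after the start, and in all 32544 distinct windows of that length in the RefSeq table. The interferon response core GAAANNGAA was held by 2 of the 8 class I windows and by 8.53% of all windows. With that core trimmed at its other end, GAANNGAAA, a form added after the windows had been seen, the figures were 2 of 8 and 7.57%; matches of these forms can overlap. The kappa B letters GGGNNTTCC were in 2 of 8 windows against 5.85% of all, and the gamma-activated site TTCNNNGAA, to which STAT dimers bind, in 1 of 8 against 8.33%. The core of the X2 box, TGACG, was in 5 of 8 windows and 20.9% of all. The inverted CCAAT box of the Y element, ATTGG, was in 7 of 8 and 37.4%, and TATAAA in 4 of 8 and 13.6%. A match of letters is not a bound site, and these libraries do not measure binding.

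H2-D1 and H2-K1 held the same series of matches in the same order: kappa B, the interferon form GAANNGAAA, X2, ATTGG, the reversed form of that box, and TATA. In both genes the GAANNGAAA match, of the form added after the windows had been seen, lay on the opposite strand. Neither gene held the core GAAANNGAA. In H2-D1 these began 171, 150, 101, 76, 53 and 26 bases before the start. In H2-K1 the first 4 began 111, 90, 41 and 16 bases before the annotated start, and the last 2 began 8 and 35 bases after it. The step from kappa B to GAANNGAAA was 21 bases in both genes and that from X2 to ATTGG 25 bases in both. Between the CCAAT boxes it was 23 bases in H2-D1 and 24 in H2-K1. From the kappa B match through the TATA match, 151 bases of H2-D1 and 152 of H2-K1 aligned with 88.2% identity. In B2m the interferon core GAAANNGAA began 139 bases before the start, X2 at 78 and ATTGG at 53, with 25 bases between the last 2 as in H2-D1 and H2-K1. The window of H2-T23 held the core GAAANNGAA on the opposite strand at 123 bases and a CCAAT box at 52. In Psmb8 the gamma-activated match began 97 bases before the start. Tap1 and Psmb9 have start sites 226 bases apart and 275 bases of their windows in common, so their X2 and CCAAT matches are the same letters counted for both genes.

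**Figure D1:**
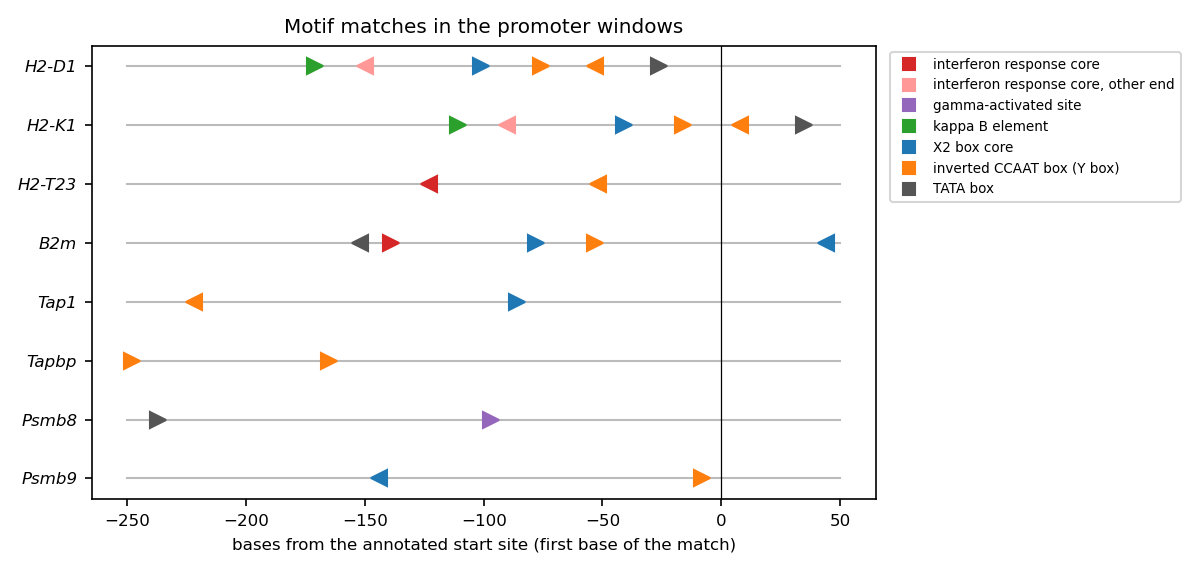
Positions of motif matches in the promoter windows of the 8 class I genes with RefSeq sequence; the x axis gives bases from the annotated start site, each triangle marks the base at the left end of a match and points right for the gene's strand and left for the other, and colours give the motif. H2-D1 and H2-K1 show the same 6 matches in the same order, displaced by about 60 bases.

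The libraries held between 61979103 and 76291481 counted reads. S100a16 itself stood at 18.0, 17.7 and 30.0 FPKM (fragments counted per length of transcript and per size of library) in the S100a16+/- libraries and at 57.7, 58.8 and 56.8 in WT. Its log2 change was -1.35 (SE 0.21, edgeR quasi-likelihood adjusted p = 0.0313), and without S100a16+/- replicate 3 it was -1.63; leaving out any other single library ended the call. S100a16+/- replicate 3 stood apart from replicates 1 and 2. It was the 1 library with a high Xist level (32.2 FPKM against 0.01 to 0.03 in the other 5) and with Ddx3y near 0 (0.01 against 12.1 to 15.8), and the summed level of stellate and myofibroblast markers was 92.0 FPKM in it, 777 and 742 in replicates 1 and 2, and 644 to 719 in WT. By the sex-linked genes Xist and Ddx3y, replicate 3 read as female and the other 5 libraries as male. Log2 changes are therefore given with and without that library. The stellate marker Lrat was between 0.01 and 0.05 FPKM in all 6 libraries and Hhip between 0 and 0.05, so both were near absent. Of the 10 listed stellate and myofibroblast markers, 6 reached 1 FPKM in every library. All 10 macrophage and Kupffer cell markers were present in every library, with summed levels of 10147 to 15964 FPKM in S100a16+/- and 7471 to 7825 in WT, Lyz2 alone reaching 10057. These markers did not move alike: with all 6 libraries 8 of the 10 had a log2 change above 0 and 2 below. Their median was 0.54, and 3 of the 10 were called higher and 0 lower, beside 2.85% and 1.61% of all tested genes. Those 3 were Adgre1 (0.46), Cd5l (0.91) and Marco (1.17). Lyz2 was at 0.94, Cd68 at 0.78, Clec4f at 0.63, Csf1r at 0.09, Vsig4 at 0.02, Ptprc at -0.06 and Timd4 at -0.47. Without replicate 3, 6 of the 10 were called higher and 1 lower, beside 15.8% and 16.4% of all tested genes. Hepatocyte markers summed to 8.24, 8.57 and 431 FPKM in S100a16+/- replicates 1, 2 and 3 and to 62.2 to 94.9 in WT, and endothelial markers to 767, 734 and 1791 against 1546 to 1665. Dendritic cell markers summed to 64.3, 65.6 and 13.7 FPKM and to 13.3 to 14.6 in WT, mostly Itgax. For T and NK cells the sums were 2.77 to 8.10 FPKM against 9.43 to 9.58 in WT, with Cd3e and Cd3d at 0 in S100a16+/-, and for B cells 1.44 to 10.3 against 3.49 to 4.16. Neutrophil markers summed to 28.4 to 31.5 FPKM against 16.7 to 19.8, and cholangiocyte markers to 81.8 to 233 against 35.7 to 41.4, mostly Spp1. The part of these mixtures in the class I levels was not tested, and more cells of a type cannot be told apart from more RNA per cell.

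All 10 class I genes had a higher mean in S100a16+/- than in WT cells. Their log2 changes lay between 0.44 and 0.98 with a median of 0.53, where the median over all 12766 tested genes was 0.00. Together they took 0.408%, 0.448% and 0.537% of the counts in the S100a16+/- libraries and 0.306%, 0.303% and 0.299% in WT. In 9 of the 10 the groups did not overlap, Nlrc5 being the exception; the groups did not overlap, with S100a16+/- higher, in 12.5% of all tested genes, and with S100a16+/- lower in 18.9%. H2-D1, H2-T23, Tap2 and Tapbp passed an edgeR adjusted p of 0.05, 4 of 10 genes, where 2.85% of tested genes passed as higher and 1.61% as lower. Because the genes were selected on this contrast, nothing is read from these counts. Without S100a16+/- replicate 3, 9 of 10 passed, beside 15.8% of tested genes as higher and 16.4% as lower, and the median log2 change was 0.55. Leaving out replicate 1 of S100a16+/- left 2 of 10 (0.446% of tested genes higher), and leaving out replicate 2 left 0 (0.329%). With WT replicate 1, 2 or 3 left out, 0 of 10 passed, beside 0.243%, 0.196% and 0.172% of tested genes. In those 4 fits with 0, edgeR gave 7 to 9 of the 10 an unadjusted p under 0.05. So did 1895 to 2029 of the 12766 tested genes, in either direction. DESeq2 on all 6 libraries called 8 of 10 higher, beside 1125 of the tested genes higher and 763 lower. Nothing is read from these counts either.

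**Figure D2:**
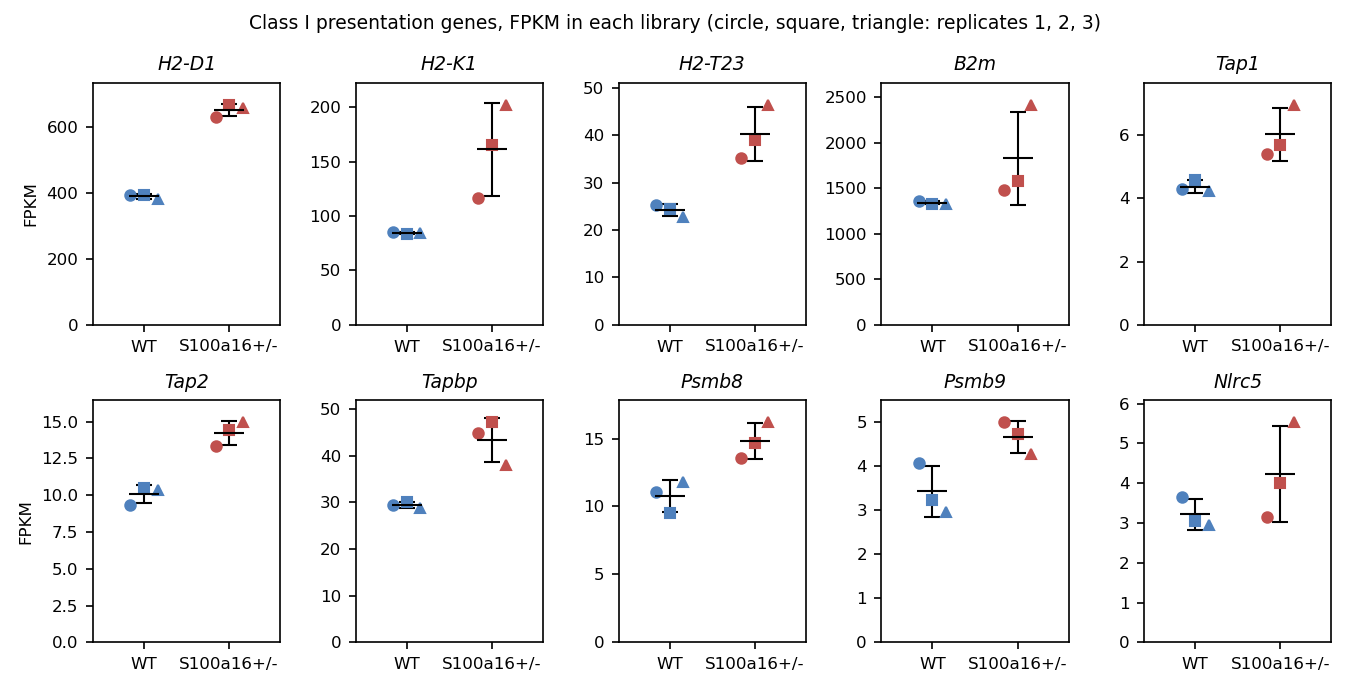
FPKM of the 10 class I genes in each library, WT in blue and S100a16+/- in red, with circles, squares and triangles for replicates 1, 2 and 3 and black bars for the mean and 1 SD (n = 3). The groups are apart in every panel except Nlrc5, and the triangle of S100a16+/- is highest in 7 panels.

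The heavy chains, which bind the peptide and face the receptors of T and NK cells, had the 3 largest log2 differences of the set with all 6 libraries. The classical heavy chain H2-D1 (chr17:35262730-35267499, plus strand) read 630, 669 and 657 FPKM in S100a16+/- replicates 1, 2 and 3 and 393, 396 and 382 in WT. The 3 S100a16+/- libraries lay close to each other and well above WT. On the log2 scale the difference was 0.79 (SE 0.08) with all libraries and 0.80 without replicate 3. H2-K1 (chr17:33996017-34000347, minus strand), the other classical heavy chain, read 117, 165 and 202 FPKM against 85.8, 84.0 and 84.3. Its WT libraries were almost equal (coefficient of variation 1.14%) while the S100a16+/- libraries spread over a wide range (26.6%), replicate 3 being highest. The log2 difference was 0.98 (SE 0.19), or 0.80 without replicate 3. H2-T23, which encodes the nonclassical chain Qa-1 that presents leader peptides of other class I chains to NK receptors (chr17:36029773-36032855, minus strand), stood at 35.1, 39.1 and 46.5 FPKM against 25.3, 24.5 and 22.8. All of its S100a16+/- values exceeded all WT values, with a log2 difference of 0.78 (SE 0.11) and 0.68 without replicate 3.

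H2-D1 and H2-K1 are 88.3% identical over their coding sequence, and H2-T23 is 78.9% identical to H2-K1 and 79.9% to H2-D1. Of the 50-base windows of the H2-D1 transcript 14.3% occur unchanged in another gene, and 1.79% of its 150-base windows do. For H2-K1 the shares were 8.79% and 0%, and for H2-T23 28.8% and 0.831%. The sources used here do not tell how reads that fit several heavy chains were counted, so small differences between these genes are uncertain. The ratio of H2-D1 to H2-K1 within a library was 4.54 to 4.71 in WT and 5.40, 4.06 and 3.25 in S100a16+/- replicates 1, 2 and 3, so the WT ratios lay inside the range of the S100a16+/- ratios.

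B2m encodes the light chain that every class I heavy chain needs for folding and surface display. It was the most abundant gene of the set (chr2:122147686-122153083, plus strand), at 1484, 1580 and 2419 FPKM in S100a16+/- and 1359, 1330 and 1331 in WT. The mean of replicates 1 and 2 was 1.14 times the WT mean, and replicate 3 was 1.81 times it. The log2 difference of 0.49 (SE 0.19) became 0.26 without replicate 3, so leaving out that library moved it by over 1.5 times. B2m over the sum of H2-K1 and H2-D1 within a library was 1.99, 1.896 and 2.81 in S100a16+/- and 2.84, 2.77 and 2.85 in WT. Relative to the classical heavy chains, B2m was thus lower in replicates 1 and 2 than in any WT library, and in replicate 3 it fell within the WT range.

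Tap1 and Tap2 encode the subunits of the peptide transporter. Tap1 (chr17:34187553-34197225, plus strand) stood at 5.40, 5.67 and 6.95 FPKM in S100a16+/- and 4.28, 4.59 and 4.22 in WT, a log2 difference of 0.51 (SE 0.11) and of 0.41 without replicate 3. Tap2 (chr17:34203527-34216321, plus strand) stood at 13.3, 14.4 and 15.0 FPKM against 9.37, 10.5 and 10.3. That is a log2 difference of 0.55 (SE 0.08), and 0.53 without replicate 3. For both subunits the lowest S100a16+/- value exceeded the highest WT value, and Tap2 over Tap1 was 2.15 to 2.54 in S100a16+/- and 2.19 to 2.45 in WT, ranges that overlap. Tapbp encodes tapasin, the bridge that holds an empty class I molecule to the transporter. At chr17:33915899-33926197 on the plus strand, it read 44.9, 47.2 and 38.1 FPKM against 29.5, 30.2 and 28.8, with replicate 3 the lowest of the S100a16+/- libraries. The log2 difference was 0.61 (SE 0.10) and 0.71 without replicate 3. Tapbp overlaps Zbtb22 on the same strand over 3422 bases, and Zbtb22 held 25.2% as many counts as Tapbp, so its level is uncertain to the extent that reads were split between them. In the coordinates of the deposited table the Tap1 and Psmb9 genes overlap by 212 bases on opposite strands. By the RefSeq starts used for the promoters they do not overlap, those starts being 226 bases apart.

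Psmb8 and Psmb9 encode the immunoproteasome subunits that take the place of Psmb5 and Psmb6. Psmb8 (chr17:34197721-34201454, plus strand) read 13.6, 14.7 and 16.2 FPKM in S100a16+/- and 11.0, 9.49 and 11.8 in WT. Its lowest S100a16+/- library stood above its highest WT library, and the log2 difference was 0.51 (SE 0.11), or 0.45 without replicate 3. Psmb9 (chr17:34181987-34187764, minus strand) read 5.00, 4.72 and 4.28 FPKM against 4.08, 3.23 and 2.96. The gap between the groups was narrow, from 4.08 to 4.28 FPKM, with a log2 difference of 0.50 (SE 0.15) and 0.57 without replicate 3. Set against the constitutive subunits within each library, the groups overlapped: Psmb8 over Psmb5 was 0.126, 0.133 and 0.199 in S100a16+/- and 0.137, 0.118 and 0.143 in WT. Psmb9 over Psmb6 was 0.0753, 0.0692 and 0.0886 against 0.0827, 0.0615 and 0.0529. The ratio of Psmb10, the remaining immunoproteasome catalytic subunit, to its partner Psmb7 did not overlap, at 0.803, 0.828 and 0.674 in S100a16+/- and 0.490, 0.507 and 0.472 in WT.

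Nlrc5 encodes the transactivator that drives class I genes. It was the least abundant of the set (chr8:94434356-94527272, plus strand), at 3.15, 4.00 and 5.54 FPKM in S100a16+/- and 3.65, 3.05 and 2.94 in WT. S100a16+/- replicate 1 lay inside the WT range, replicate 2 just above it and replicate 3 well above. The log2 difference was 0.44 (SE 0.21) and 0.22 without replicate 3, the smallest of the set in both fits.

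**Figure D3:**
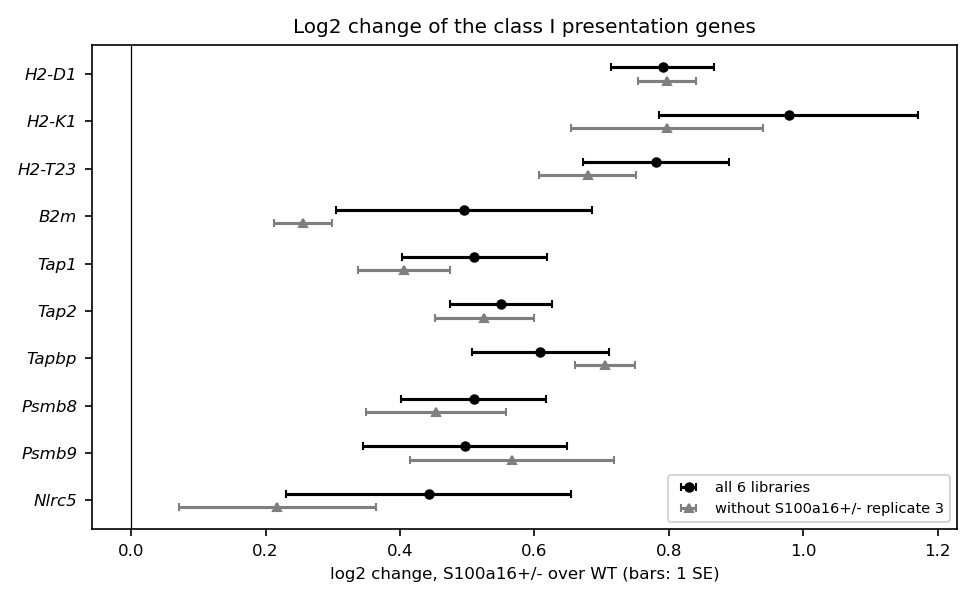
Log2 change of the 10 class I genes between S100a16+/- and WT cells, in edgeR fits of all 6 libraries (black circles) and without S100a16+/- replicate 3 (grey triangles), with bars of 1 SE. All values are above 0; those of B2m and Nlrc5 move most towards 0, from 0.49 to 0.26 and from 0.44 to 0.22.

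By level in FPKM, which is scaled to length, the order was the same in both genotypes: B2m, H2-D1, H2-K1, Tapbp, H2-T23, Psmb8, Tap2, Tap1, Psmb9 and Nlrc5. Neighbours whose values overlapped were Psmb8 with Tap2 and Psmb9 with Nlrc5 in both genotypes, and Tapbp with H2-T23 in S100a16+/- alone. The S100a16+/- libraries did not rank alike for all genes. Replicate 3 held the highest value for 7 of the 10, replicate 2 for H2-D1 and Tapbp, and replicate 1 for Psmb9. The median log2 ratio of the 10 genes to their WT means was 0.43, 0.49 and 0.71 in replicates 1, 2 and 3.

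The other genes of the pathway, 85 in lists set by role, had 73 members with enough signal to test. In the edgeR fit 6 of them rose in S100a16+/- cells and 0 fell, beside 2.85% of all tested genes higher and 1.61% lower, with a median log2 change of 0.06. Of the 73, 24 had an unadjusted edgeR p under 0.05, as had 2807 of all 12766 tested genes. DESeq2 called 11 of the 73 higher and 5 lower, beside 1125 and 763 of all tested genes. Each of the 6 edgeR calls remained in 1 of the 6 fits that left out a library, the one without S100a16+/- replicate 3. There 18 of the 73 were higher and 8 lower, beside 15.8% and 16.4% of all tested genes, so counts from that fit are read against those shares.

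Among the other heavy chains 3 of 9 tested rose and 0 fell. H2-T24 read 6.10, 6.98 and 8.16 FPKM against 3.62, 3.59 and 4.05 (log2 change 0.96, SE 0.13, edgeR adjusted p = 0.0241). H2-T22, a ligand of gamma delta T cells, read 21.1, 20.2 and 27.0 against 14.05, 13.88 and 14.13 (0.75, SE 0.11, edgeR adjusted p = 0.0284). H2-M3, which presents formylated peptides, read 20.4, 21.5 and 19.5 against 15.96, 15.57 and 16.09 (0.42, SE 0.08, edgeR adjusted p = 0.0437). Without replicate 3 the log2 changes were 0.86, 0.62 and 0.46 for H2-T24, H2-T22 and H2-M3, and over the list 6 of 9 were higher and 1 lower. In all 3 genes the groups did not overlap, though 44.7% of the 50-base windows of H2-T22 occur in another gene.

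A further 4 heavy chains, named after their values were seen, split the S100a16+/- libraries. H2-Q6 read 4.18, 3.84 and 32.2 FPKM against 6.33, 5.93 and 6.15 in WT, H2-Q7 2.50, 2.92 and 11.3 against 2.66, 2.61 and 2.62, and H2-Q4 19.1, 19.4 and 43.5 against 20.98, 20.92 and 21.64. These 3 genes were high in replicate 3 and near or below WT in replicates 1 and 2. H2-M2 had the opposite pattern, at 60.9, 60.3 and 5.56 FPKM against 7.34, 5.70 and 7.87. None of the 4 passed the test with all 6 libraries (edgeR adjusted p from 0.148 for H2-M2 to 0.532 for H2-Q4). Without replicate 3, H2-M2 was higher (log2 change 3.18, edgeR adjusted p = 0.000121) and H2-Q6 lower (-0.55, edgeR adjusted p = 0.00766, against 1.16 with all libraries), while H2-Q4 was at -0.08 and H2-Q7 at 0.11 without a call. Of transcript sequence, 40.2% of the 50-base windows of H2-Q7 and 32.0% of those of H2-Q6 are shared with other genes.

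**Figure D4:**
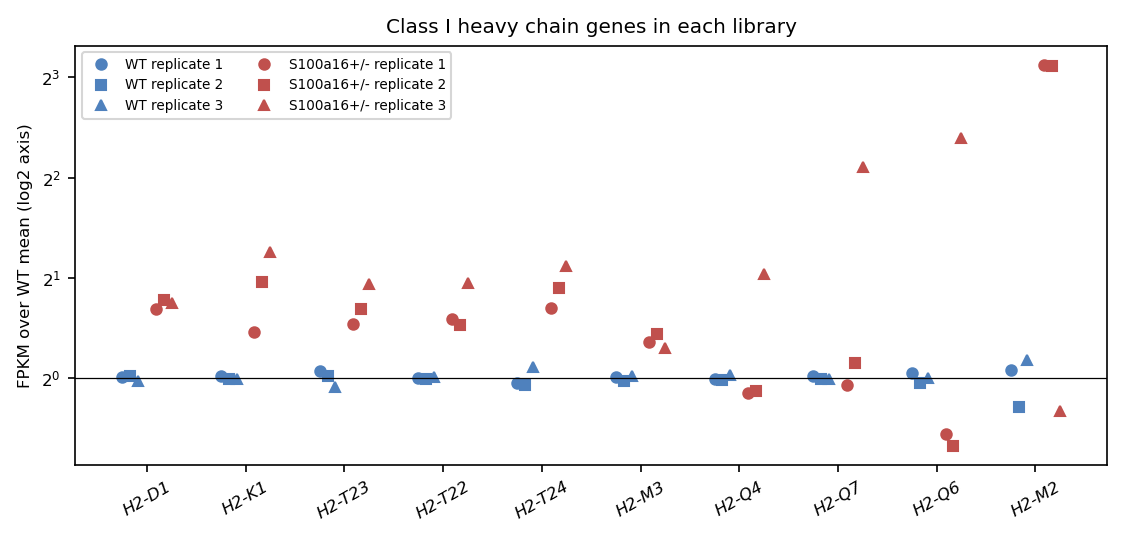
FPKM of 10 class I heavy chain genes in each library divided by the WT mean, on a log2 axis, with WT in blue, S100a16+/- in red and circles, squares and triangles for replicates 1, 2 and 3. H2-D1 to H2-M3 are above WT in all 3 S100a16+/- libraries, H2-Q4, H2-Q7 and H2-Q6 stand high in replicate 3, and H2-M2 in replicates 1 and 2.

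Of the class I-like proteins that lie outside the complex, 0 of 5 tested passed in either direction; the most abundant were the neonatal Fc receptor Fcgrt (log2 change -0.57, edgeR adjusted p = 0.175) and Procr, the protein C receptor (-0.13, edgeR adjusted p = 0.518). Without replicate 3, 3 of the 5 were lower: Fcgrt (-0.72, edgeR adjusted p = 0.0409), Procr (-0.23, edgeR adjusted p = 0.0256) and Hfe, an iron-regulating protein named after its values were seen (-0.78, edgeR adjusted p = 0.000547). The folding and loading genes of the endoplasmic reticulum gave 0 of 9. For the chaperone calreticulin, Calr, the log2 value was -0.09 (edgeR adjusted p = 0.551), and for its partner oxidoreductase Pdia3 it was -0.08 (edgeR adjusted p = 0.661). Without replicate 3 these were -0.07 and -0.16, neither called, and 1 of the 9 was higher, Tapbpl, a tapasin-like protein named after its values were seen (0.31, edgeR adjusted p = 0.0382). Of 7 trimming peptidases, 1 rose: Erap1, which shortens peptides inside the endoplasmic reticulum, read 11.3, 12.5 and 12.3 FPKM against 9.58, 9.58 and 8.72 (0.42, SE 0.07, edgeR adjusted p = 0.0386). Its value was 0.42 without replicate 3 also, where 1 trimming gene was lower, Blmh, likewise named after its values were seen (-0.34, edgeR adjusted p = 0.0106).

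Psmb10 was the 1 of 5 other immunoproteasome and activator genes that rose, at 22.4, 24.3 and 19.7 FPKM against 14.9, 15.7 and 14.5 (log2 change 0.61, SE 0.10, edgeR adjusted p = 0.0389). Psme2, a subunit of the PA28 activator named here after its values were seen, was at 38.1, 38.4 and 26.8 against 21.5, 23.7 and 25.3, without overlap but short of the threshold (0.61, SE 0.17, edgeR adjusted p = 0.106). Without replicate 3, 3 of the 5 were higher, Psmb10 at 0.70 and Psme2 at 0.77 (edgeR adjusted p = 0.0013) among them. With all 6 libraries none of the 3 constitutive catalytic subunits passed, with Psmb5 at 0.36 (edgeR adjusted p = 0.199) and Psmb6 at 0.27 (edgeR adjusted p = 0.374), and none of the 11 other core subunits, with Psma6 at 0.23 (edgeR adjusted p = 0.168) and Psmb2 at -0.13 (edgeR adjusted p = 0.329). Without replicate 3, Psmb5 (0.50, edgeR adjusted p = 0.000641), Psmb6 (0.42, edgeR adjusted p = 0.00471) and Psma6 (0.30, edgeR adjusted p = 0.00431) were called higher and Psmb2 (-0.14) was not called.

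Of 15 promoter regulators, 1 rose. Stat2, a transcription factor that acts in type I interferon signalling, read 8.44, 9.19 and 11.2 FPKM against 4.81, 4.49 and 5.70 (log2 change 0.99, SE 0.14, edgeR adjusted p = 0.0246). Without replicate 3 it was at 0.88, and 2 of the 15 were higher and 1 lower. Interferon ligands, receptors and signalling genes gave 0 of 9 tested with all 6 libraries, with Jak1, the kinase that all interferon receptors use, at -0.05 (edgeR adjusted p = 0.726) and the interferon gamma receptor subunit Ifngr2 at 0.03 (edgeR adjusted p = 0.897), a sign that flips under scaling by library totals. Without replicate 3, Jak1 (-0.09) and Ifngr2 (0.02) were not called, but 2 genes of the list were higher and 2 lower, all 4 named after their values were seen. The kinases Jak2 and Tyk2 were at 0.34 and 0.33 (edgeR adjusted p = 0.022 and 0.00665). The interferon gamma receptor subunit Ifngr1 was at -0.84 (edgeR adjusted p = 0.00237) and the feedback inhibitor Socs3 at -0.48 (edgeR adjusted p = 0.00511), the latter with its sign turned from 0.07. Of the ligands, Ifnb1, Ifna4 and Ifnl3 had 0 counts in all 6 libraries, and Ifng had 4 counts in S100a16+/- replicate 3 and 0 elsewhere; at these depths a count of 0 limits each to under 3 counts per library and covers counting error only.

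**Figure D5:**
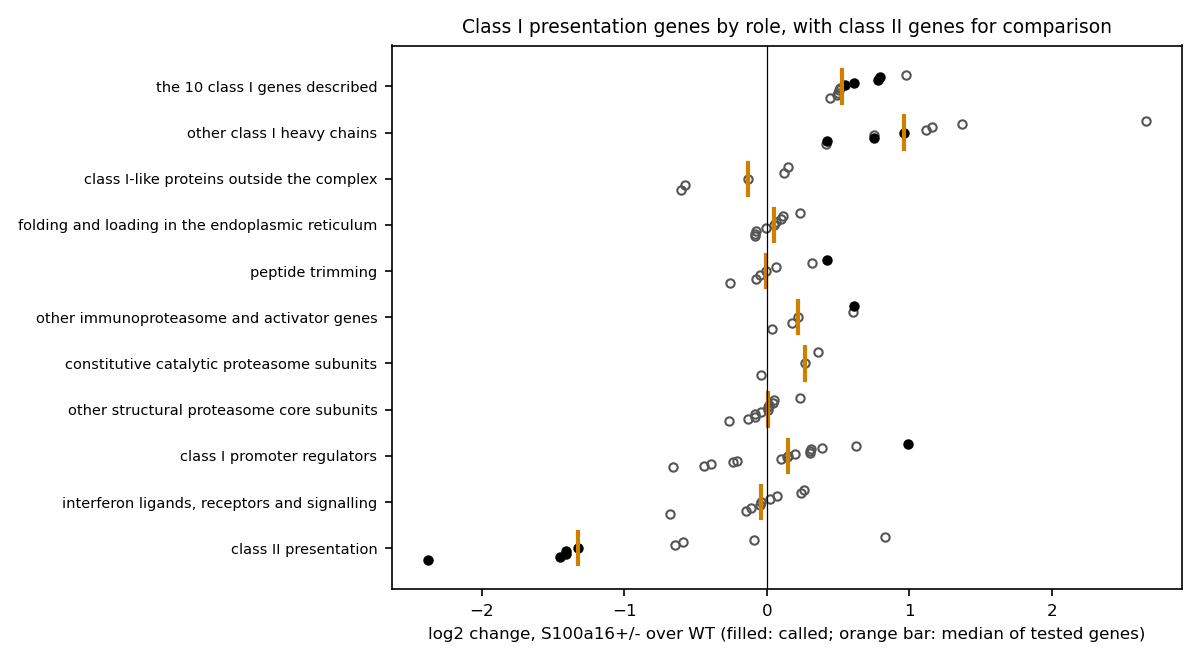
Log2 change between S100a16+/- and WT cells for the tested genes of each list, one circle per gene, filled where the edgeR adjusted p was under 0.05, with orange bars for the list medians. The 10 class I genes all lie above 0, folding and core proteasome genes lie around 0, and 5 class II genes lie below -1.

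The class II genes, which present peptides from outside the cell to CD4 T cells, mostly differed in direction. Of 9 tested, 5 fell and 0 rose, beside 1.61% of all tested genes lower and 2.85% higher. H2-Ab1 changed by -1.41 (SE 0.12, edgeR adjusted p = 0.00847), the invariant chain Cd74 by -1.45 (SE 0.07, edgeR adjusted p = 0.00133) and the class II transactivator Ciita by -2.38 (SE 0.17, edgeR adjusted p = 0.0047), on the log2 scale. Without replicate 3 the values were -1.30, -1.41 and -2.41. The calls of Cd74 and Ciita held in all 6 fits that left out 1 library, and that of H2-Ab1 in the 2 without S100a16+/- replicate 1 or 3, its edgeR adjusted p reaching 0.0706 in the others.

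Across the 6 libraries, the mean standardised profile of the 10 genes was followed most closely by H2-T23 (Pearson r = 0.998) and H2-K1 (0.979) and least by Nlrc5 (0.799) and Psmb9 (0.764), each gene being part of that mean. The genes outside the set with the highest r were Znfx1 and Phf11d (both 0.998), Oasl2 (0.996), Mon1b, Bmt2 and Zdhhc18 (each 0.995), and Herc6 and AC147806 (both 0.994). Oasl2 read 11.8, 13.6 and 18.7 FPKM against 4.49, 4.21 and 4.20, and Znfx1 27.2, 30.0 and 33.1 against 19.8, 19.1 and 18.9. Among 12756 tested genes outside the set, 203 had r above 0.95, and the 6 points share libraries and fall in 2 genotype groups, so r is a description.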

How the data were processed

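Polyadenylated RNA of 6 libraries was read in pairs. Per the labels' protocols, adapters carried unique molecular identifiers and the second strand was marked with dUTP. Tools named in the submitters' processing notes are StringTie 1.3.4d, HISAT2 2.0.4, cutadapt 1.9 and UMI-tools. Build and strand use in counting: not given in the sources used here. Per the file headers, the authors deposited 1 table with a read count and an FPKM value per gene and library. The deposited counts of 12766 genes with FPKM of at least 1 in at least 3 libraries were tested with edgeR 4.0.16 (R 4.3.3; quasi-likelihood, TMM scaling, genotype alone, two-sided, Benjamini-Hochberg over all these genes, threshold 0.05), and an SE is the log2 change over the root of F. Recovery was checked on simulated data. Alternatives were DESeq2 1.42.0, limma 3.58.1, other scalings, filters and thresholds, and leaving out each library. Total counts of 61979103 to 76291481 per library set the precision. Library pairs of 1 genotype differed by more than sampling noise.

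The 10 genes and all gene lists were chosen with earlier results of these data known. Genes named are the 10, S100a16, those of each list that passed (up to 4, otherwise the 2 most abundant), 3 class II genes, the 8 most alike in profile, and those stated to have been named after their values were seen. Promoters came from RefSeq (GRCm38.p6). The RefSeq starts of the class I genes lay 0 to 474 bases from the gene edge in the deposited table, except that of Tapbp at 3579 bases. Shared transcript windows and coding identity came from GENCODE annotation. Gene positions are those of the deposited table. Amino acid sequences were not used here.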

Additional observations from a re-analysis of the deposited data

How the results depend on the processing

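All 178 values of the 10 class I genes under the 18 alternatives were above 0. Of these, 135 kept their side of the threshold, 29 lost the call and 14 gained it. Changing only the threshold, to 0.01 or 0.1, repeats the values of the main fit. The 10 genes were chosen on this contrast, so nothing is read from the shared sign. Of the tested genes 570 passed (364 higher, 206 lower), 1888 by DESeq2's Wald test, 58 at an adjusted p under 0.01, 1238 under 0.1, 243 with no filter on low values, and 32 to 4115 with 1 library left out. The count of class I genes went from 4 to 8, 0, 7 and 2 in those same 4 settings, and 0 to 9 with 1 library left out, and that of the other pathway genes from 6 to 16, 0, 11 and 2, and 0 to 26. At 0.01, edgeR's unadjusted p was under 0.05 for 9 and 24 genes, beside 2807 of the 12766 tested genes. The highest counts came without S100a16+/- replicate 3. Scaling by library totals gave 282 higher and 252 lower genes, limma on log2(FPKM + 1) 260 and 247. Their cause was not tested. The median log2 change of the 10 genes was 0.38 with limma on log2(FPKM + 5), which shrinks low genes by construction. Ifngr2 moved from 0.03 to -0.030 with library totals, to -0.021, -0.021 and -0.019 with limma at pseudocounts of 0.1, 1 and 5, and between -0.033 and 0.10 with 1 library left out.

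Same-numbered deviations from the group means correlated at -0.138, 0.038 and -0.050. With 3 libraries per group, and S100a16+/- replicate 3 far from replicates 1 and 2, these values cannot decide whether the replicate numbers pair the samples. With the replicate block, edgeR called 0 genes in all, 0 of the class I genes and 0 of the other pathway genes, with unadjusted p under 0.05 for 2207, 8 and 19, and DESeq2 without the block calling 1888, 8 and 16.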

Other observations

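Class I and class II transcripts were also compared within each library. H2-D1 over H2-Ab1, in FPKM, was 29.7, 37.1 and 41.7 in S100a16+/- replicates 1, 2 and 3 and 7.58, 8.10 and 7.51 in WT, so every S100a16+/- library stood above every WT library, S100a16+/- replicate 3 highest. Both genes had been seen in the contrast already, and the ratio is given as a value.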
